A study of Homo sapiens with 21 samples.

Results

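The transcripts of 10 amino acid transporter genes were followed across 21 libraries of HepG2/C3A cells, grown as a flat layer or as spheroids. The genes are SLC3A2, SLC7A5, SLC7A11, SLC43A1, SLC7A1, SLC1A4, SLC1A5, SLC6A9, SLC38A2 and SLC38A4. They were taken by symbol, with earlier results of these data known. All 10 were among the 19683 symbols in the count table, and all 10 passed the filter on low counts that left 12345 genes. HepG2/C3A is a line derived from a human liver tumour and is given as WT in the labels; the labels name no edited gene and no drug. The cultures of interest were 3D spheroids at Days 3, 7, 10, 14, 21 and 28, aggregated in ultra-low attachment plates and then held in a ClinoReactor, a rotating culture vessel. They were set against a 2D monolayer of the same line. The sample titles give no culture day for 2D. Words such as fell, rose and came back against 2D thus describe a difference between groups, not a course in time. Culture form and vessel differ together in these comparisons, and a high level in 2D and a low level in spheroids cannot be told apart. Each of the 7 groups had 3 libraries, and the maintenance medium for all was MEM with serum and non-essential amino acids. RNA was measured by TempO-Seq, a targeted assay that joins paired detector oligos on each transcript and counts the joined product by sequencing. The design asks how the transcriptome changes while spheroids form and are kept in culture.

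Cells take up amino acids through plasma membrane carriers that differ in substrate and mechanism. SLC7A5 (LAT1, which exchanges large neutral amino acids such as leucine) and SLC7A11 (xCT, which exchanges cystine for glutamate) are light chains that need the heavy chain SLC3A2 (CD98hc, 4F2hc) to reach the surface. SLC7A1 (CAT1) carries arginine and lysine, SLC1A4 (ASCT1) and SLC1A5 (ASCT2) exchange small neutral amino acids and glutamine, and SLC38A2 and SLC38A4 (SNAT2 and SNAT4) take up small neutral amino acids with sodium. SLC6A9 (GLYT1) takes up glycine and SLC43A1 (LAT3) lets large neutral amino acids pass without a heavy chain. Many of these genes are known targets of ATF4, the transcription factor made when amino acids run short or the endoplasmic reticulum is stressed, while the liver is known for strong expression of SLC38A4. On GRCh38 with GENCODE 29, the heavy chain SLC3A2 spans chr11:62856102-62888875 (plus strand) and SLC43A1 chr11:57484534-57515786 (minus strand). The light chains lie apart, SLC7A5 at chr16:87830023-87869488 and SLC7A11 at chr4:138164097-138242349, both on the minus strand. SLC38A2 (chr12:46358189-46372867) and SLC38A4 (chr12:46764761-46832408) lie on the same strand of 1 chromosome, the minus strand.

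Promoter sequences were read for the members because 8 of them moved together. RefSeq promoters on GRCh38.p14, from 250 bases before to 50 bases after each start site, were found for 9 of the 10 members, with 15 start sites; none was found for SLC7A11. Both strands were searched for TGATGNAA, a core of the C/EBP-ATF response element that ATF4 binds, where N is any base. It was present at 4 of the 15 start sites, against 3.62% of 35116 promoters of the same length, and these sites lay in 4 of the 9 genes. The percent is a share of start sites, and no like share of genes was computed. SLC3A2 and SLC1A5 had 3 start sites each, SLC1A4 had 2 and SLC7A1 had 1, with the match at 1 start site of each gene. In SLC3A2, SLC1A4 and SLC1A5 that start site lay inside the annotated gene, downstream of another start site. For SLC1A5 it was at 46784814. The start site at the annotated 5′ end of SLC1A5, 46788594, had no match of this or the other motif searched. Which start sites these cells used was not tested. The 30-base windows around these matches are shown on the strand of the gene, 5′ to 3′, with the match in capitals; in SLC3A2 and SLC1A4 the motif reads on the opposite strand. None of these 4 matches overlapped a match of the other motif searched.
SLC3A2, chr11:62881719-62881748, plus strand: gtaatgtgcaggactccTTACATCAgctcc
SLC7A1, chr13:29595663-29595692, minus strand: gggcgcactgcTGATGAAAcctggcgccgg
SLC1A4, chr2:64989381-64989410, plus strand: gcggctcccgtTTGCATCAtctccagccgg
SLC1A5, chr19:46784893-46784922, minus strand: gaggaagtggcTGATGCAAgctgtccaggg
The first base of the match lay at position 38 in SLC3A2, 8 in SLC7A1, -7 in SLC1A4 and -97 in SLC1A5, counting the start site as 1. The same was done with TGACNNNGC, a core of the antioxidant response element bound by NRF2, because NRF2 is a known regulator of the partner gene SLC7A11. It was found at 4 of the 15 start sites, against 13.3% of all promoters, and these sites lay in 4 of the 9 genes. Only in SLC1A5 did it read on the opposite strand, and it lay at another start site of that gene than the match above, also inside the annotated gene.
SLC7A5, chr16:87869490-87869519, minus strand: gcggggttccTGACGCAGCtgcgggcggcg
SLC3A2, chr11:62881652-62881681, plus strand: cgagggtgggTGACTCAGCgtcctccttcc
SLC7A1, chr13:29595754-29595783, minus strand: tgcccggcggTGACGCGGCcgagcgggccg
SLC1A5, chr19:46787385-46787414, minus strand: cctggatcttGCGAGGTCAgctcccgctcc
The first bases of these matches were at -2 in SLC7A5, -37 in SLC3A2, -85 in SLC7A1 and -111 in SLC1A5. A match is a run of letters, not a bound site. The bases upstream of the start are given for the member that fell most, SLC3A2, and for the member that moved the other way, SLC38A4. Of the 3 start sites of SLC3A2, the 1 shown is the only 1 with a match of either motif. SLC38A4 had 1 start site. Capitals mark the TGACNNNGC match in SLC3A2; no match of either motif was in the SLC38A4 window.
SLC3A2, chr11:62881549-62881698, plus strand: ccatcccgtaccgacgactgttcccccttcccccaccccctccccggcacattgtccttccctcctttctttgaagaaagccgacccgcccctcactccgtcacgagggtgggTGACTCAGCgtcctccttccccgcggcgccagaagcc
SLC38A4, chr12:46825998-46826147, minus strand: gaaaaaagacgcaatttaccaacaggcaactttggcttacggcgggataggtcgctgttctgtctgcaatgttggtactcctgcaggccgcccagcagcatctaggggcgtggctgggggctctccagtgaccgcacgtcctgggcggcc

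Each library summed to between 18760232 and 43443262 counts (median 31997292). Levels are given as CPM, each count as a share of the TMM-scaled library size in the usual per-million unit. A level depends on the detector oligos of the gene, so levels compare libraries and not genes. The log2 fold changes are given ± SE from 1 edgeR quasi-likelihood fit of all libraries, and the threshold for a call was an adjusted p of 0.05 (Benjamini-Hochberg, over all genes tested). The labels call the replicates biological without saying that they came from separate cultures, and the p-values cover only the spread seen among these libraries. Summed levels of 9 hepatocyte markers were 50620 to 52470 CPM at Day 3 and 10540 to 11360 CPM in 2D. They were 42370 to 48910 CPM at Day 14, against 63320 to 65300 CPM at Day 10. In that interval ALB (log2 -0.96 ± 0.14), TF, AFP, APOA1, TTR and SERPINA1 were called lower. FGB (0.44 ± 0.12) and HNF4A (0.28 ± 0.11) were called higher, and APOB was not called. Of 4 blood and macrophage markers, PTPRC and CD163 were at 0 in every library. The summed level of the 4 was 218.3 to 222.7 CPM at Day 3, against 64.6 to 69.2 CPM in 2D. LYZ rose by log2 3.07 ± 0.086 (adjusted p = 2.57e-25) and CD68 was not called (0.15 ± 0.099, adjusted p = 0.173). The sum was 154 to 175 CPM at Day 14, against 202 to 213 CPM at Day 10. There CD68 fell by log2 -0.96 ± 0.10 (adjusted p = 1.27e-09), and LYZ was not called (-0.17 ± 0.077, adjusted p = 0.0658). Of 4 cholangiocyte markers, SOX9 rose at Day 3 over 2D by log2 1.01 ± 0.063, while KRT19 (-2.11 ± 0.18) and EPCAM (-0.31 ± 0.073) fell. Of 4 endothelium markers, 3 stayed under 1 CPM in every library. Of 5 fibroblast and stellate markers, COL1A1 and DCN were at 0 in every library and only PDGFRB could be tested, which rose at Day 3 by log2 3.16 ± 0.58 (adjusted p = 9.62e-06), with a summed level of the list of 0.602 to 1.07 CPM at Day 3 and 0 to 0.229 CPM in 2D. Summed levels of 10 proliferation genes were 1397 to 1427 CPM at Day 3, against 66.6 to 84.0 CPM in 2D. They were 265 to 446 CPM at Day 14, against 1661 to 1814 CPM at Day 10. All 10 rose in the first comparison, where 40.1% of all genes tested were called higher. All 10 fell in the second, where 24.3% were called lower. The part of these markers in the changes below was not tested, and in these bulk samples fewer cells of a kind and less RNA per cell cannot be told apart.

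Most of the transporters were lower in young spheroids than in 2D, and from Day 14 on fewer were. At Day 3, 8 of the 10 fell and 1 rose against 2D, where 37.8% of all genes tested were called lower and 40.1% higher. Their median log2 fold change was -1.59, against 0.056 over all genes tested. At Day 7 there were 8 lower and 2 higher (background 38.4% and 40.4%), and at Day 10 there were 9 lower and 1 higher (background 37.9% and 40.0%). The balance was different in older spheroids. Day 14 had 4 higher and 4 lower (background 38.7% and 35.7%), Day 21 had 3 higher and 5 lower (background 39.3% and 35.1%), and Day 28 had 5 higher and 4 lower (background 38.5% and 34.8%). The median log2 fold change of the 10 was -0.023 at Day 14, -0.32 at Day 21 and -0.013 at Day 28, beside 0.059, 0.089 and 0.084 over all genes tested on these days. With libraries scaled by their totals alone, the Day 3 counts were 7 lower and 2 higher, since the SLC7A5 call was lost and SLC43A1 was called higher. These 6 comparisons share the 2D libraries. A joint F test across the spheroid groups, with no contrast to 2D, called all 10 members (background 76.2%), with adjusted p-values of 1.83e-26 for SLC3A2 to 8.02e-09 for SLC38A4.

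**Figure D1:**
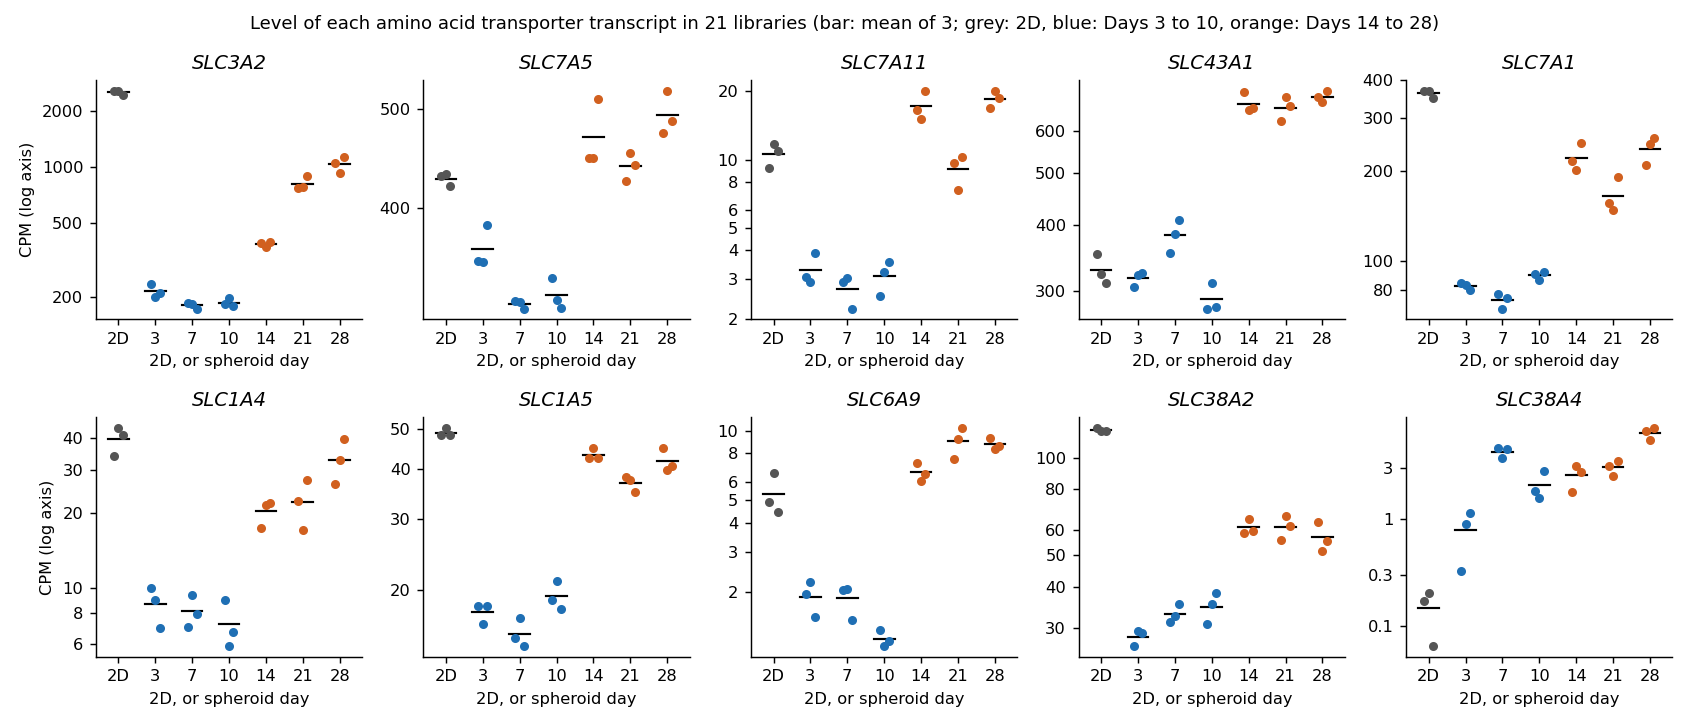
Level of each of the 10 transporter transcripts in CPM (log axis, own scale for each gene) in the 21 libraries, with a bar at the mean of the 3 libraries of a group. In 8 panels the points of Days 3 to 10 lie below the 2D points; in the SLC38A4 panel every spheroid point lies above the 2D points, and in the SLC43A1 panel Days 14 to 28 lie highest.

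SLC3A2, the shared heavy chain, had the largest fall of the 10 at Day 3 and was still below 2D on Day 28. Its level was 233, 199.6 and 210.4 CPM at Day 3, against 2535.7, 2560.1 and 2417.6 CPM in 2D. The highest spheroid library thus had far less than the lowest 2D library, and the replicates of each group lay close together. The log2 fold change was -3.55 ± 0.077, an 11.7-fold lower level (adjusted p = 4.41e-28). Days 7 and 10 were lower still, at 179.97 ± 6.44 and 186 ± 8.81 CPM (SD, n = 3). From Day 14 the level stepped up at each sampling, to 383 ± 12.5 CPM at Day 14, 810.4 ± 65.3 CPM at Day 21 and 1032 ± 104 CPM at Day 28. Each of these steps over the day before was called, by log2 1.05 ± 0.071 at Day 14 over Day 10, 1.08 ± 0.071 at Day 21 over Day 14 and 0.35 ± 0.070 at Day 28 over Day 21. Day 28 libraries, at 1040.2, 925 and 1132 CPM, did not reach the 2D range, and the difference was -1.28 ± 0.071 (adjusted p = 3.40e-17).

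SLC7A5, the leucine exchanger that pairs with SLC3A2, moved far less. At Day 3 it had 354, 354 and 385 CPM, against 429, 431 and 420.1 CPM in 2D, without overlap. The log2 fold change was -0.23 ± 0.060 (adjusted p = 8.81e-04), and this call was lost when libraries were scaled by their totals alone (-0.013, adjusted p = 0.862). That scaling raised the median of all genes by 0.14 to 0.22 on the log2 scale in the comparisons with 2D. The lowest level was at Day 7, 322 ± 3.03 CPM, and the highest at Day 28, 494 ± 24.7 CPM (SD, n = 3), a range of 1.54-fold between group means. Over 2D, SLC7A5 was higher by log2 0.21 ± 0.060 at Day 28 (adjusted p = 0.00225). At Day 14 the difference was 0.14 ± 0.060 (adjusted p = 0.0419), a call that 9 single libraries decide: it was lost without 2D replicate 1 or 3, Day 7 replicate 3, Day 10 replicate 1 or 3, Day 14 replicate 2 or 3, Day 21 replicate 2 or Day 28 replicate 1, with adjusted p-values of 0.0558 to 0.194. It was also lost under DESeq2 (adjusted p = 0.0758) and with DESeq2 size factors (adjusted p = 0.0893). At Day 21 it was 0.042 ± 0.060 (adjusted p = 0.534), with a 95% interval of -0.080 to 0.16, but it was called higher by totals alone (0.20, adjusted p = 0.00647) and when only genes of at least 10 CPM in 3 libraries were kept (0.14, adjusted p = 0.0265). GENCODE lists the pseudogenes SLC7A5P1 and SLC7A5P2, so counts of SLC7A5 could hold reads of near-identical copies.

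SLC7A11, the cystine carrier, fell and then passed its 2D level. It had 3.06, 2.91 and 3.90 CPM at Day 3, against 9.19, 11.7 and 10.9 CPM in 2D. The groups did not overlap, and the log2 fold change was -1.70 ± 0.17, or 3.24-fold lower (adjusted p = 6.11e-11). At Day 14 the 3 libraries had 16.5, 15.0 and 20.0 CPM, against 2.52, 3.21 and 3.55 CPM at Day 10. This was the largest rise of the 10 genes between those days, 5.50-fold or log2 2.46 ± 0.17 (adjusted p = 8.03e-14). The course was then uneven: the mean was 9.11 ± 1.53 CPM at Day 21 and 18.4 ± 1.50 CPM at Day 28 (SD, n = 3). Day 21 was lower than Day 14 by log2 -0.92 ± 0.15 (adjusted p = 2.31e-05), and Day 28 was higher than Day 21 by 1.02 ± 0.15 (adjusted p = 7.54e-06). Over 2D, the gene was higher at Day 14 by log2 0.69 ± 0.15 (adjusted p = 1.34e-04) and at Day 28 by 0.80 ± 0.15 (adjusted p = 2.31e-05), and not called at Day 21 (-0.22 ± 0.15, adjusted p = 0.193). An antisense gene, SLC7A11-AS1, is annotated at the locus, and the sources used here do not state whether counting used strand.

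Since light and heavy chains assemble into 1 carrier, their transcript ratio was followed within each library, which no scaling of libraries can alter. The ratio's own level depends on the oligos, and its change between groups is what can be read. The log2 ratio of SLC7A5 to SLC3A2 was -2.55 ± 0.024 in 2D (SD, n = 3, as for the ratios that follow). Its Day 3, Day 7 and Day 10 means were 0.77 ± 0.14, 0.84 ± 0.039 and 0.82 ± 0.084. The Day 14 mean was 0.29 ± 0.097, the Day 21 mean -0.88 ± 0.12 and the Day 28 mean -1.06 ± 0.21. Every spheroid library lay above every 2D library. From Day 14 the ratio moved back towards the 2D value without reaching it. For SLC7A11 over SLC3A2 the log2 ratio was -7.89 ± 0.19 in 2D, between -6.06 and -5.92 as group means at Days 3 to 10, and -4.49 ± 0.18 at Day 14. Later means were -6.49 ± 0.21 (Day 21) and -5.81 ± 0.23 (Day 28). It too was above 2D in every spheroid library, with its highest value at Day 14. The ratios are given as a description, and no test of them was run.

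**Figure D2:**
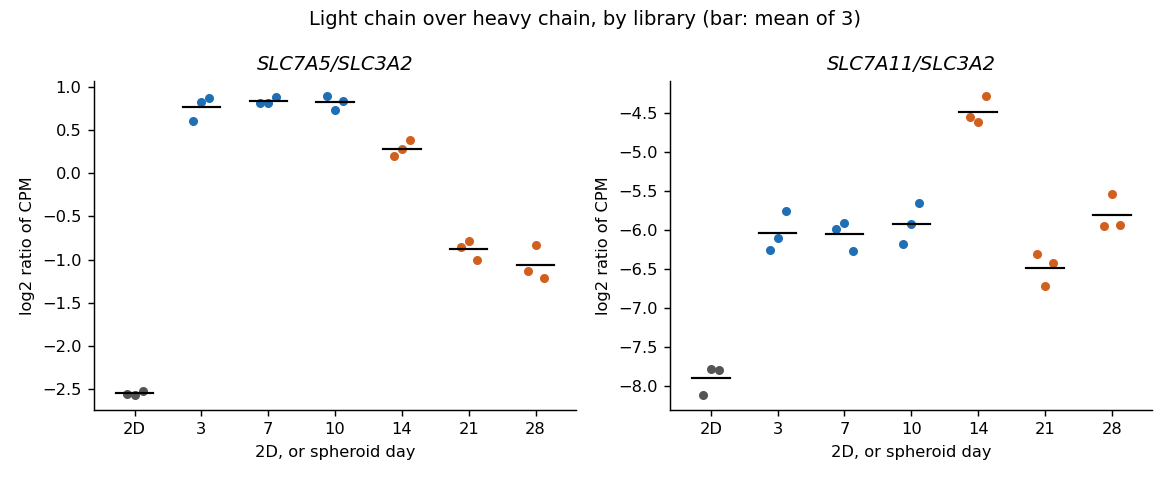
Log2 ratio of light chain to heavy chain CPM in each library, SLC7A5 over SLC3A2 on the left and SLC7A11 over SLC3A2 on the right, with a bar at the mean of 3 libraries. The ratio is lowest in 2D in both panels, at -2.55 and -7.89; the left panel is flat from Day 3 to Day 10 and the right panel has its highest point at Day 14.

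SLC43A1, the large neutral carrier that needs no heavy chain, did not share the early fall. At Day 3 it had 305, 321 and 324 CPM, against 352, 323 and 311 CPM in 2D, and the groups overlapped. The log2 difference was -0.053 ± 0.064 (adjusted p = 0.456), with a 95% interval of -0.18 to 0.078. Its sign turned with the scaling by totals alone (0.17, adjusted p = 0.0121). At Days 7 and 10 the calls over 2D were small and opposite, 0.22 ± 0.064 and -0.18 ± 0.064. The call at Day 7 was lost without Day 7 replicate 3 (adjusted p = 0.112), and that at Day 10 was lost under scaling by totals (-0.046, adjusted p = 0.485) or with only genes of at least 10 CPM in 3 libraries (-0.094, adjusted p = 0.164). At Day 14 the libraries stood at 709.7, 657 and 662 CPM, against 278, 309.9 and 280.2 CPM at Day 10. None overlapped, and the rise was 2.34-fold, log2 1.22 ± 0.065 (adjusted p = 1.21e-16). The new level was kept, with means of 676 ± 29.2, 663 ± 34.5 and 697 ± 17.0 CPM at Days 14, 21 and 28 (SD, n = 3). Against 2D, Day 28 was 2.12-fold higher, log2 1.09 ± 0.065 (adjusted p = 2.15e-16).

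SLC7A1, the arginine and lysine carrier, was lower than 2D on all 6 days. It had 84.3, 83.0 and 80.3 CPM at Day 3, against 369.7, 369.9 and 349.9 CPM in 2D. The change was 4.40-fold, log2 -2.14 ± 0.086 (adjusted p = 2.47e-20), and the 2 groups lay far apart relative to their spread. Day 14 brought 215, 201 and 247 CPM, against 90.3, 86.9 and 92.2 CPM at Day 10, a rise of log2 1.30 ± 0.084 (adjusted p = 6.05e-14). As with SLC7A11, Day 21 was below Day 14 (165 ± 23.1 and 221 ± 23.4 CPM, log2 -0.42 ± 0.082, adjusted p = 2.06e-04) and Day 28 was above Day 21 (237 ± 25.1 CPM, log2 0.52 ± 0.082, adjusted p = 1.78e-05). At Day 28 it remained below 2D by log2 -0.61 ± 0.082 (adjusted p = 7.12e-08).

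The ASC-type exchangers SLC1A4 and SLC1A5 both fell and came most of the way back. SLC1A4, which carries alanine, serine and cysteine, had 10.02, 8.99 and 6.95 CPM at Day 3, against 34.1, 44.1 and 41.1 CPM in 2D (log2 -2.19 ± 0.19, adjusted p = 9.37e-10). Its Day 14 libraries were at 17.5, 21.6 and 22.1 CPM, against 8.98, 5.88 and 6.71 CPM at Day 10 (log2 1.52 ± 0.20, adjusted p = 1.56e-06). By Day 28 the libraries, at 26.3, 32.7 and 39.7 CPM, overlapped those of 2D. The difference over 2D was then -0.27 ± 0.18 (adjusted p = 0.178), with a 95% interval of -0.65 to 0.10. SLC1A5, the main glutamine exchanger of many cultured lines, had 18.3, 16.5 and 18.3 CPM at Day 3, against 48.4, 50.4 and 48.5 CPM in 2D (log2 -1.47 ± 0.088, adjusted p = 1.72e-16). At Day 14 it had 42.5, 44.9 and 42.5 CPM, against 18.9, 21.1 and 18.0 CPM at Day 10 (log2 1.16 ± 0.088, adjusted p = 7.65e-13). Both moves left no overlap between the groups. The later difference from 2D was small, -0.18 ± 0.084 at Day 14 (adjusted p = 0.0514) and -0.24 ± 0.085 at Day 28 (adjusted p = 0.0137). The call at Day 28 was lost without 2D replicate 2, Day 28 replicate 2 or Day 28 replicate 3 (adjusted p = 0.0764 to 0.107), by totals alone (-0.022, adjusted p = 0.818), with no filter (adjusted p = 0.0698) and with only genes of at least 10 CPM in 3 libraries (adjusted p = 0.159), and that at Day 14 was gained without any 1 of 7 libraries (adjusted p = 0.0261 to 0.0447): 2D replicate 1, Day 7 replicate 3, Day 10 replicate 1 or 3, Day 14 replicate 2, Day 21 replicate 2 or Day 28 replicate 1. It was gained too under DESeq2 (adjusted p = 0.0213), with its size factors (adjusted p = 0.0338) and in a fit of the 2 groups alone (adjusted p = 0.0446), while by totals alone the difference was 0.0094 (adjusted p = 0.925).

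SLC6A9, the glycine carrier, crossed from below to above its 2D level. Its libraries had 1.96, 2.21 and 1.56 CPM at Day 3, against 4.91, 6.54 and 4.46 CPM in 2D (log2 -1.47 ± 0.20, adjusted p = 3.52e-08). After its lowest mean at Day 10, with 1.37, 1.17 and 1.23 CPM, it had 7.24, 6.05 and 6.51 CPM at Day 14. This was a 5.28-fold rise over Day 10, log2 2.40 ± 0.21 (adjusted p = 1.54e-11). The mean was 9.02 ± 1.36 CPM at Day 21 and 8.74 ± 0.483 CPM at Day 28, with no overlap with 2D on either day. Over 2D these were log2 0.76 ± 0.18 (adjusted p = 2.82e-04) and 0.71 ± 0.18 (adjusted p = 6.76e-04). At Day 14 the difference was 0.31 ± 0.18 (adjusted p = 0.119), and it was called without 2D replicate 2 (0.52, adjusted p = 0.0213) and by totals alone (0.50, adjusted p = 0.0144).

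The sodium-coupled SLC38 pair went opposite ways. SLC38A2, the system A carrier that cells induce when amino acids are short, had 26.3, 29.2 and 28.8 CPM at Day 3, against 123, 120.4 and 120.3 CPM in 2D. It was 4.32-fold lower, log2 -2.11 ± 0.088 (adjusted p = 9.96e-21). At Day 14 it was higher than at Day 10 by log2 0.81 ± 0.086 (adjusted p = 1.74e-09), with 58.7, 64.9 and 59.6 CPM, against 30.8, 35.4 and 38.2 CPM at Day 10. No further step was called, the differences being 0.0043 ± 0.084 at Day 21 over Day 14 and -0.11 ± 0.085 at Day 28 over Day 21. Day 28, at 56.9 ± 6.04 CPM, lay below 2D by log2 -1.10 ± 0.085 (adjusted p = 2.14e-13).

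SLC38A4, the member known for its expression in liver, was barely detected in 2D and present in every spheroid group. Its Day 3 libraries held 13, 26 and 32 counts, against 4, 8 and 2 counts in the 2D libraries. In CPM this was 0.323, 0.899 and 1.13 at Day 3, against 0.169, 0.204 and 0.0651 in 2D, without overlap, and the log2 fold change was 2.32 ± 0.48 (adjusted p = 6.64e-05). Day 7 had a further rise over Day 3, with 4.58, 3.69 and 4.48 CPM (log2 2.48 ± 0.32, adjusted p = 8.62e-07). The Day 10 and Day 14 means were 2.06 ± 0.633 and 2.55 ± 0.677 CPM, and the Day 21 and Day 28 means were 3.02 ± 0.488 and 6.38 ± 0.824 CPM (SD, n = 3). The fall at Day 10 against Day 7, log2 -1.05 ± 0.28 (adjusted p = 0.00573), was not called without Day 10 replicate 2 (-0.87, adjusted p = 0.0501). Day 14 did not differ from Day 10 by the test (0.30 ± 0.29, adjusted p = 0.417), with a 95% interval of -0.30 to 0.90. At Day 28 the gene was 41.7-fold higher than in 2D, log2 5.38 ± 0.41 (adjusted p = 1.02e-13), and the 95% interval of 4.56 to 6.21 reflects the 14 counts that the 2D libraries held together.

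**Figure D3:**
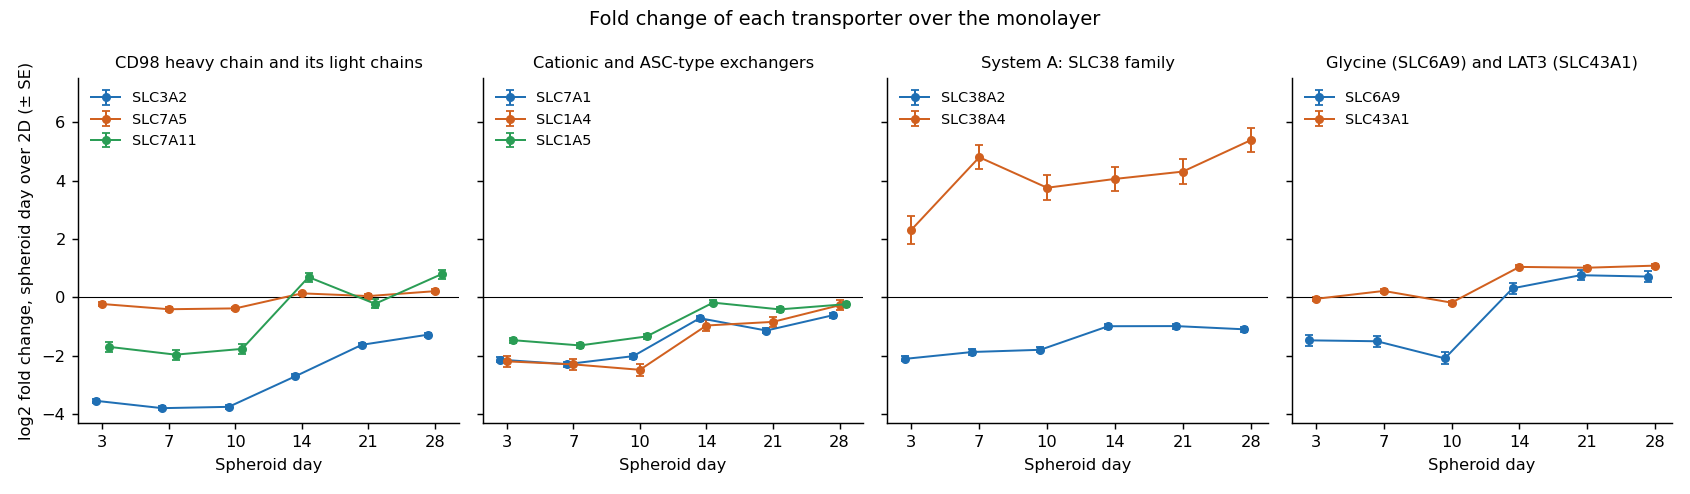
Log2 fold change of each transporter over 2D (points, with bars of ± SE) by spheroid day, in 4 panels by role. SLC3A2 starts at -3.55 and climbs from Day 14 to -1.28, SLC7A5 stays near 0, SLC38A4 is above 2 on each day, and SLC43A1 and SLC6A9 are above 0 at Days 14 to 28.

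The turn fell between Days 10 and 14. In that interval 9 of the 10 rose and none fell, where 24.0% of all genes tested were called higher and 24.3% lower. The median log2 fold change of the 10 was 1.19, against 0.017 over all genes tested. All 10 proliferation genes fell in the same interval, and their part in these rises was not tested. In the intervals before it the counts were 2 higher and 2 lower at Day 7 over Day 3 (background 10.6% and 8.76%), and 2 higher and 3 lower at Day 10 over Day 7 (background 13.9% and 13.5%). Only SLC38A4 and SLC43A1 kept their Day 7 call whichever library was left out. Among the 10, SLC43A1 alone kept its Day 10 call in the same way, with a fall of log2 -0.40 ± 0.064 (adjusted p = 1.47e-05). Later, 1 member rose and 3 fell at Day 21 over Day 14 (background 13.9% and 12.7%), and 6 rose with none lower at Day 28 over Day 21 (background 10.0% and 14.0%). Of these, the Day 21 calls of SLC3A2, SLC7A1 and SLC7A11 and the Day 28 calls of SLC3A2, SLC7A1, SLC7A11 and SLC38A4 held whichever library was left out. From Day 3 to Day 28 all 10 rose and none fell (background 29.5% and 30.2%), by log2 0.44 ± 0.060 for SLC7A5 up to 3.07 ± 0.32 for SLC38A4.

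The calls that rested on single libraries in these shorter intervals were as follows. At Day 7 over Day 3 the SLC3A2 fall was lost without Day 3 replicate 1 or Day 7 replicate 3 (adjusted p = 0.0541 to 0.124), and the SLC7A5 fall was lost without any 1 of 8 libraries, all 6 of those 2 days among them (adjusted p = 0.0507 to 0.205). The difference of SLC38A2 in that interval (0.24, adjusted p = 0.0533) was called without any 1 of 7 libraries: Day 7 replicate 1, Day 14 replicate 3, Day 21 replicate 1 or 3, or any of Day 28 (adjusted p = 0.0392 to 0.0492). At Day 10 over Day 7 the SLC7A1 rise was lost without Day 7 replicate 2 (adjusted p = 0.0675), the SLC1A5 rise without Day 10 replicate 2 (adjusted p = 0.0741), and the SLC6A9 fall without any 1 of 14 libraries (adjusted p = 0.0516 to 0.147). The SLC1A5 fall at Day 21 over Day 14 was lost without any 1 of 9 libraries, all 6 of those days among them (adjusted p = 0.0512 to 0.148), and SLC6A9 was called higher without any 1 of 4 (adjusted p = 0.0281 to 0.0494). At Day 28 over Day 21 the SLC1A4 rise was lost without Day 21 replicate 1 or 2 or Day 28 replicate 2 or 3 (adjusted p = 0.0687 to 0.142), and the SLC7A5 rise without any 1 of 5 libraries (adjusted p = 0.0503 to 0.208).

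Of the 10 genes, 8 were lower at Day 3 than in 2D and also higher at Day 14 than at Day 10, the exceptions being SLC38A4 and SLC43A1. These comparisons share no library, and 15.7% of all genes tested (1939) met both conditions. Since the 10 were chosen with earlier results of these data known, their share is not independent evidence. SLC3A2 had the largest fall of the 8 (-3.55) with a rise of 1.05, and SLC1A4 the next largest (-2.19) with a rise of 1.52. SLC7A11 and SLC6A9, with falls of -1.70 and -1.47, had the largest rises (2.46 and 2.40). The smallest of the 8 falls (-0.23) and the smallest rise (0.52) were both those of SLC7A5. All are log2 fold changes, and no relation between the moves was tested.

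**Figure D4:**
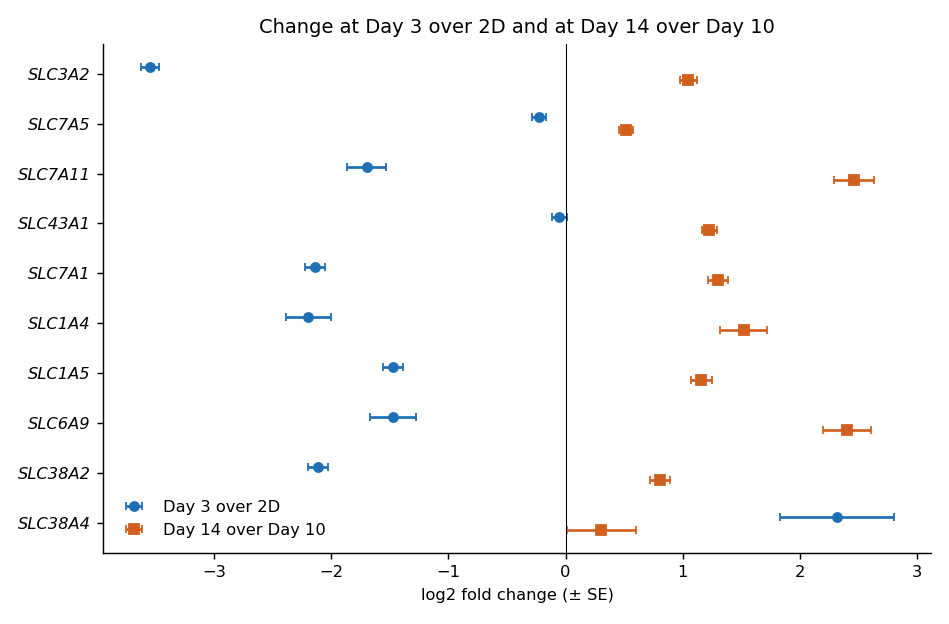
Log2 fold change at Day 3 over 2D (circles) and at Day 14 over Day 10 (squares) for each of the 10 genes, with bars of ± SE. The circles of 8 genes lie left of 0 with their squares right of 0; SLC43A1 has its circle at -0.053 and SLC38A4 has its circle at 2.32.

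The order of group means differed between genes in where 2D stood. For SLC3A2, SLC7A1, SLC1A4, SLC1A5 and SLC38A2 the 2D mean was the highest of the 7 groups, and of these 2D overlapped its neighbour in the order, Day 28, in SLC1A4 alone. For SLC7A11 2D lay between Day 21, which it overlapped, and Day 14, which it did not. Days 3, 7 and 10 held the 3 lowest means in 8 of the genes, the exceptions being SLC43A1 and SLC38A4. Group means spanned 13.9-fold in SLC3A2 (2D over Day 7), 7.20-fold in SLC6A9 (Day 21 over Day 10), 6.75-fold in SLC7A11 (Day 28 over Day 7) and 43.7-fold in SLC38A4 (Day 28 over 2D).

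Other amino acid transporters of the plasma membrane moved in both directions. Of 30 further genes listed, 16 could be tested, and 8 were at 0 in every library. At Day 3 against 2D, 5 of the 16 rose and 7 fell (background 40.1% and 37.8%), with a median of -0.15. SLC38A1, the close relative of SLC38A2 and the gene of most counts in the list, was at 309.4 ± 9.48 CPM at Day 3 and 1300.2 ± 24.5 CPM in 2D (SD, n = 3; log2 -2.07 ± 0.073, adjusted p = 1.19e-22). SLC38A3, a glutamine carrier of hepatocytes, rose slightly at Day 3 (0.19 ± 0.067) and more by Day 28, with 793 ± 97.0 CPM at Day 28, against 241 ± 1.23 CPM in 2D (log2 1.72 ± 0.068, adjusted p = 4.07e-21). The largest rise was that of SLC6A14, a broad neutral and cationic carrier, with 72.4 ± 4.13 CPM at Day 3, against 5.47 ± 0.691 CPM in 2D (log2 3.74 ± 0.15, adjusted p = 4.87e-19); it fell at Day 14 over Day 10 (-0.74 ± 0.13, adjusted p = 1.81e-05). The largest fall was that of the glutamate carrier SLC1A2 (-2.44 ± 0.19, adjusted p = 4.89e-13). At Day 14 over Day 10, 5 rose and 3 fell (background 24.0% and 24.3%), with a median of 0.23. Of the 16, 3 had both the fall at Day 3 and the rise at Day 14, a share near the 15.7% of all genes tested.

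Carriers of inner membranes were given by the same counts. Of 8 lysosomal transporters tested, 6 fell and 1 rose at Day 3 against 2D (median -0.75, background 37.8% and 40.1%). At Day 14 over Day 10, 6 rose with none lower (median 0.47, background 24.0% and 24.3%). SLC66A1 (PQLC2), which exports cationic amino acids from lysosomes, had the largest fall, log2 -1.68 ± 0.079 (adjusted p = 2.65e-19). The 1 that rose, SLC29A3 (0.51 ± 0.057, adjusted p = 7.19e-10), is a nucleoside carrier. Of 9 mitochondrial carriers, 3 rose and 5 fell at Day 3 (median -0.39, background 40.1% and 37.8%). At Day 14 over Day 10, 1 rose and 3 fell (median 0.014, background 24.0% and 24.3%).

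A list of 32 further genes of the ATF4 response, holding no transporter, moved in the same intervals as the 10. At Day 3 against 2D, 22 fell and 6 rose (background 37.8% and 40.1%), with a median of -1.74. At Day 14 over Day 10, 28 rose and none fell (background 24.0% and 24.3%), with a median of 1.17. The pseudokinase TRIB3, of most counts in the list, was at 1818.5 ± 38.9 CPM at Day 3, against 35332 ± 2098 CPM in 2D (log2 -4.28 ± 0.11, adjusted p = 1.39e-23). It was at 6907 ± 108 CPM at Day 14, against 2087 ± 131 CPM at Day 10 (log2 1.73 ± 0.098, adjusted p = 2.46e-14). The largest fall was in the stress-induced factor ATF3 (-5.97 ± 0.42, adjusted p = 1.18e-14) and the largest rise at Day 14 in CHAC1, which degrades glutathione, with 12.2 ± 0.644 CPM at Day 14 and 0.837 ± 0.495 CPM at Day 10 (log2 3.78 ± 0.31, adjusted p = 2.67e-10). Some genes went another way: PSPH, the last enzyme of serine synthesis, rose at Day 3 by log2 2.95 ± 0.11 (adjusted p = 1.22e-21), as did the alanine aminotransferase GPT2 (0.45 ± 0.072, adjusted p = 1.10e-06). At Day 28 against 2D, 13 of the 32 were higher and 16 lower (background 38.5% and 34.8%), with a median of -0.16. The fall at Day 3 and the rise at Day 14 were both seen in 21 of the 32, against 15.7% of all genes tested. This list too was chosen with earlier results of these data known.

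The kinases that phosphorylate eIF2alpha, upstream of ATF4 translation, did not move as 1 group. At Day 3 EIF2AK3 (PERK) fell by log2 -1.80 ± 0.076 (adjusted p = 1.18e-20) and EIF2AK4 (GCN2) rose by 1.05 ± 0.064 (adjusted p = 3.38e-16). In each direction 2 of the 4 were called (background 37.8% lower and 40.1% higher). At Day 14 over Day 10, 1 rose and 1 fell (background 24.0% and 24.3%), EIF2AK3 by 0.25 ± 0.076 (adjusted p = 0.00673) and EIF2AK1 by -0.23 ± 0.069 (adjusted p = 0.00618). The call of EIF2AK1 was lost when libraries were scaled by totals (-0.17, adjusted p = 0.0539). Transcript levels say nothing of kinase activity.

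Genes of glutathione synthesis and the NRF2 response, set beside the cystine carrier SLC7A11, were split in both intervals. Of 12 tested, 5 rose and 7 fell at Day 3 against 2D (median -0.74, background 40.1% and 37.8%), and 2 rose and 5 fell at Day 14 over Day 10 (median -0.20, background 24.0% and 24.3%). The 2 that rose at Day 14 were SRXN1 and GCLC, the catalytic subunit of glutathione synthesis and named after its values were seen (0.55 ± 0.069, adjusted p = 5.21e-08; -2.93 ± 0.073 at Day 3 over 2D, adjusted p = 1.03e-26). Among the 5 falls, that of NFE2L2, which encodes NRF2 (-0.15, adjusted p = 0.0459), was lost by totals alone (adjusted p = 0.125), with no filter (adjusted p = 0.0985), in a fit of the 2 days alone (adjusted p = 0.0545) and without any 1 of 16 libraries. SRXN1, which repairs oxidised peroxiredoxins, fell by log2 -3.51 ± 0.096 at Day 3 (adjusted p = 8.08e-23) and rose by 0.87 ± 0.089 at Day 14 over Day 10 (adjusted p = 4.26e-09). The quinone reductase NQO1 went the other way in both, with 1.27 ± 0.072 (adjusted p = 4.22e-17) and -0.47 ± 0.071 (adjusted p = 1.31e-06). Of 19 genes that sense amino acids upstream of mTORC1, 8 rose and 8 fell at Day 3 (median 0.0062), and 4 rose and 5 fell at Day 14 over Day 10 (median 0.029), shares near those of all genes tested in both directions. SESN2 stands in this list and in the ATF4 list. RRAGD, a Rag GTPase, had the largest fall of these at Day 3 (-4.62 ± 0.28, adjusted p = 1.67e-16).

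**Figure D5:**
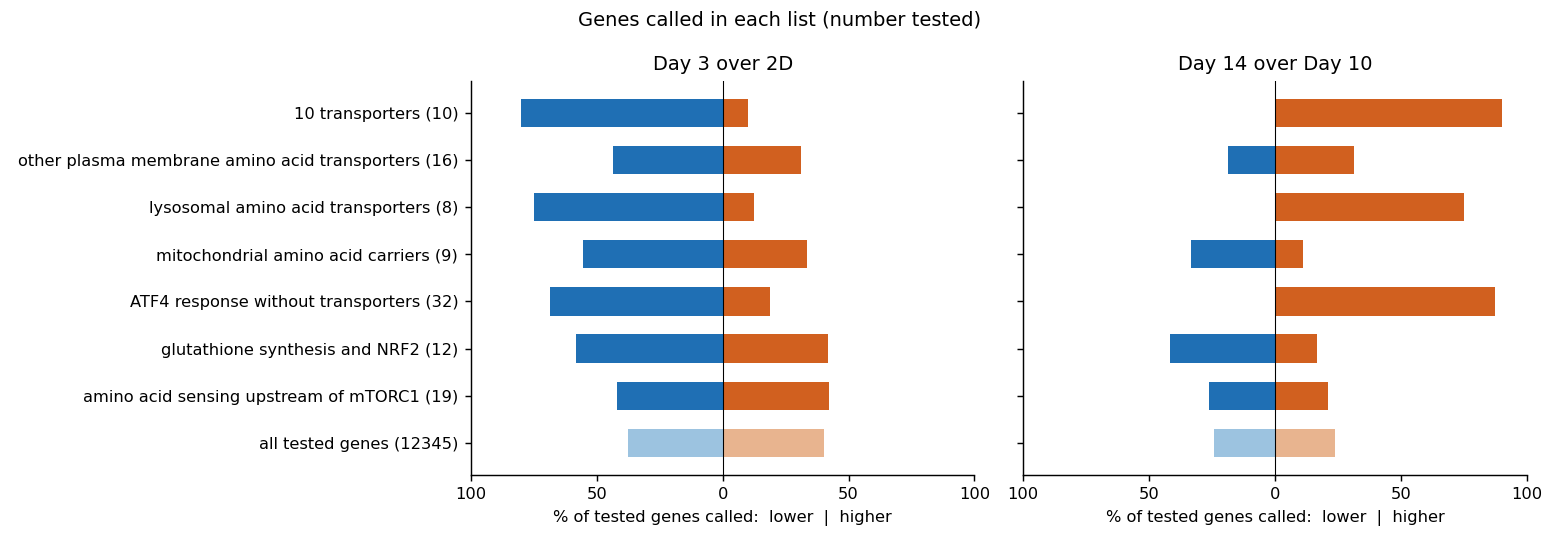
Percent of tested genes called lower (left of 0) and higher (right of 0) at Day 3 over 2D and at Day 14 over Day 10, for the 10 transporters, 6 other gene lists and all 12345 tested genes, with the number tested in brackets. The 10 transporters, the lysosomal carriers and the ATF4 list have long bars on the lower side at Day 3 and none on that side at Day 14.

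For each member the genes of most similar course were sought by Pearson's r of log2 CPM over the 21 libraries, among 7206 genes of at least 10 CPM on average. The libraries form 7 groups of 3 and are not independent points, so r is a description only. The closest to SLC3A2 was MIA3, a protein of collagen export from the endoplasmic reticulum, with r = 0.991, and the closest to SLC7A1 was the GTPase GTPBP2 with r = 0.989. LONP1, a mitochondrial protease, was closest to SLC7A11 (r = 0.974) and second closest to SLC7A5 (r = 0.946). SLC43A1 was closest to CBS, the first enzyme of transsulfuration (r = 0.982), whose counts may be shared with its near-identical copy CBSL. SLC38A4 was closest to CSF3R, a cytokine receptor, with r = 0.954.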

How the data were processed

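RNA was purified on columns and equal amounts entered each TempO-Seq library, per the labels' protocols. The authors deposited raw counts per gene symbol, in 1 table for 21 libraries; its values are whole numbers. Per the submitters' processing notes, which give no role or order, the upstream tools were STAR 2.7.10b, fastp 0.23.2, DESeq2 1.38.0 and bcl2fastq 2.20.422, with the build GRCh38.p13. The sources used here do not say how several oligos of 1 gene were combined. Of the 19683 genes, 3403 were at 0 everywhere and 12345 passed filterByExpr (minimum count 10); the rest held 0.0108% of counts.

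Counts were scaled by TMM and fitted in edgeR 4.0.16 (R 4.3.3, robust quasi-likelihood, 7 groups, biological coefficient of variation 9.62%, 14 residual and 18 prior degrees of freedom). The fit was first run on simulated counts in which few genes changed, evenly up and down. That run does not check TMM where most genes change, as at Day 3 over 2D. Log2 CPM used a prior count of 2. Alternatives were DESeq2 1.42.0, its size factors, scaling by totals, other filters, fits of 2 groups, a replicate block and each library left out. Replicate pairs differed by more than sampling noise (chi-square per degree of freedom 5.68 to 29.7). All 10 members are named, and from each further list and comparison the largest called rise and fall and the 2 genes of most counts could be named; not all are printed. The members and lists were chosen with earlier results of these data known, so their direction is not independent evidence. The list gene SAMTOR was not analysed here. Sequences are from RefSeq, GRCh38.p14.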

Additional observations from a re-analysis of the deposited data

How the results depend on the processing

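Under DESeq2, DESeq2 size factors, scaling by totals alone, no filter, a filter of at least 10 CPM in 3 libraries, only the 2 groups compared, a replicate block and each library left out in turn, the counts of members called stayed within 1.5 times the reported count in 358 cases and moved further in 5. These were at Day 10 over Day 7, where 5 became 3 under the 10 CPM filter, which leaves 8 members, and 2 to 5 without 1 library, and at Day 7 over Day 3, where 4 became 2 to 5 without 1 library. Day 14 over Day 10 kept 9 members called and Day 28 over Day 3 kept 10 without any 1 library. The 1.5 times rule takes no account of direction. At Day 14 over 2D, 4 higher and 4 lower became 3 and 5 under DESeq2 and with its size factors, and 5 and 4 by totals alone. In 4 cases a member fold change turned sign, none of them called in the reported fit. SLC43A1 at Day 3 over 2D turned to 0.17 by totals alone and 0.027 under the 10 CPM filter. SLC1A5 at Day 14 over 2D turned to 0.0094 by totals alone. With 1 library left out, SLC7A5 at Day 21 over 2D ran from -0.011 without Day 21 replicate 2 to 0.094 without Day 21 replicate 1. Its larger values by totals alone and under the 10 CPM filter are given above. The cause of the turns of sign was not tested. In another 73 cases the call was lost and in 15 it was gained. A case here is 1 member in 1 comparison under 1 alternative, and 2660 cases kept both sign and call. For steps between adjacent days, apart from Day 14 over Day 10, only members called in the reported fit were counted. Gains there, such as SLC38A2 at Day 7 over Day 3 and SLC6A9 at Day 21 over Day 14, are not among the 15. Over all genes, the number called at Day 7 over Day 3 was 2393 and ran from 1547 to 3600 over the alternatives, and at Day 28 over Day 21 it was 2964 and ran from 1865 to 3399. By totals alone, 39.4% of the calls at Day 7 over Day 3 were higher, against 54.8% with TMM, and 55.6% of those at Day 28 over Day 21, against 41.8%.

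To compare replicate numbers, the log2 CPM of each gene tested was taken as its deviation from the mean of its group. Pearson's r of these deviations, not of the levels, was found for pairs of libraries from different groups. Across groups, the 63 same-numbered pairs had r of -0.06 to 0.10 (median 0.015). The 126 pairs of different number had r of -0.12 to 0.079 (median -0.0068). By mean r, 16 of 21 libraries lay nearest their own replicate number out of the 3 numbers, and what the numbers share was not tested. Fitting the replicate number as a block left the count of members called at 9 at Day 3 over 2D and 9 at Day 14 over Day 10. It gained SLC1A5 at Day 14 over 2D (-0.18, adjusted p = 0.0481) and 1 more member at Day 7 over Day 3, giving 5. Counting error limits SLC38A4 in 2D, at 2 to 8 counts a library.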
